A study of Mus musculus with 12 samples.

Results

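TCF/LEF factors are the DNA-binding end of the canonical WNT pathway, and the members described here are Tcf7, Tcf7l1, Tcf7l2 and Lef1, their partner beta-catenin (Ctnnb1), the pathway target and inhibitor Axin2, and the corepressors Tle1, Tle2, Tle3 and Tle4. Every probe set that the platform annotation ties to exactly 1 of these genes was taken, whatever its result. This gave 23 of the 45037 probe sets that were left after 64 control probe sets were set aside. The 23 stand for 9 of the 10 genes, of 18193 genes in all, as no probe set used here was tied to Tcf7, and it has no value. The measurements are log2 RMA values, in which a difference of 1 is a doubling of signal, on 12 Affymetrix mouse arrays. The arrays hold 6 samples of CD34+ and 6 of CD34- cells, parted with magnetic beads (MACS) from skin of mice of a C57 DBA background with no engineered allele or treatment named in the labels. The sialomucin CD34 marks the bulge of mouse hair follicles, the niche of slow-cycling stem cells. Each fraction came from 3 isolations of pooled mice (6 or more a pool) and each RNA went onto 2 arrays, but which of the arrays came from 1 RNA is not labelled. An n of 6 therefore counts arrays and stands for 3 RNA samples, and p-values are too small wherever arrays of the same RNA are alike. The age of the mice is not given in the sources used here beyond the word adult in the study's title.

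In the absence of a WNT signal, TCF/LEF proteins sit on their target genes together with TLE corepressors of the Groucho family and hold them down. When WNT ligands stop the destruction complex from degrading beta-catenin, beta-catenin enters the nucleus, binds TCF/LEF proteins and recruits coactivators. Tcf7l1, long called TCF3, acts mostly as a repressor and is known from the bulge and outer root sheath of the follicle. Tcf7l2, long called TCF4, is expressed in the bulge too, whereas Lef1 is known from the hair matrix and precortex, where hair keratins are switched on, and from the dermal papilla. Axin2 is a scaffold of the destruction complex that beta-catenin and TCF/LEF switch on, so it is widely used as a readout of the pathway and feeds back on it.

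The array values were checked against the labels before the members were examined. The sort marker Cd34 read 9.14 to 10.57 on CD34+ arrays but 2.95 to 3.71 on CD34- arrays, with means 6.92 apart (limma adjusted p = 3.59e-09). Of 33 probe sets of 15 bulge markers, 23 were higher and 2 lower in CD34+ cells (69.7% and 6.06%, against 7.64% and 13.9% of all probe sets). That list was chosen with earlier results of these data known, so its count is not an independent check of the labels. CD34+ arrays 1, 3 and 5 had compressed values, with SDs of 2.07, 1.92 and 2.02 across probe sets, whereas SDs lay between 2.19 and 2.32 elsewhere. The controls at the 3' and 5' ends of Actb, whose log2 gap is a sign of RNA length, lay 3.95 to 5.65 apart in CD34+ and 1.82 to 3.24 in CD34- arrays, so the fractions did not overlap. Where leaving out arrays 1, 3 and 5 ended a call on a member, the value without them is given too. In pooled cells like these, fewer cells of a type and less RNA per cell cannot be told apart.

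Across all 45037 probe sets, 7.64% were higher and 13.9% lower in CD34+ cells by limma (adjusted p under 0.05 over all probe sets), 21.5% in all. Of the 23 member probe sets 5 were higher and 2 lower. The 5 are both probe sets of Tcf7l1, 2 of the 4 of Tcf7l2 and 1 of the 3 of Tle4, and the 2 are 1 of the 2 of Axin2 and 1 of the 4 of Tle3. The median log2 fold change was 0.20 over the member probe sets and 0.06 over all probe sets. The arrays of the fractions did not overlap for 4 of the 23 member probe sets in the higher and 2 in the lower direction. All 6 are among the 7 that passed. Over all probe sets, passed or not, this held for 4% in the higher and 6.86% in the lower direction. With each array centred on its median, 4 member probe sets were higher and 4 lower, and after a further quantile normalization 6 were higher and 4 lower. Over all probe sets the lower share of the calls was 64.6%, and it was 78.9% after median centring and 58.3% after quantile normalization.

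**Figure D1:**
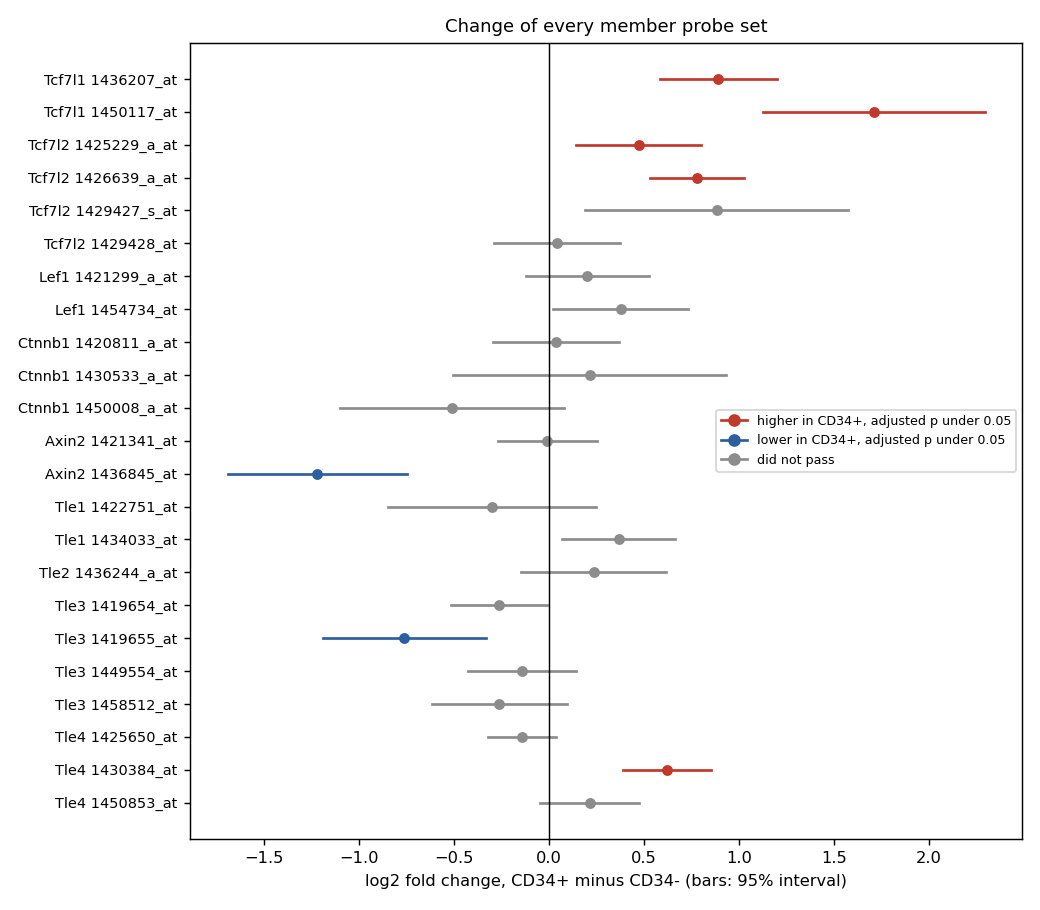
Log2 fold change (CD34+ minus CD34-) of the 23 member probe sets, with points for limma estimates and bars for 95% intervals. Red probe sets were higher and blue ones lower in CD34+ cells at an adjusted p under 0.05, and grey ones did not pass. Tcf7l1 lies to the right of 0 in both probe sets and Axin2 shows the lowest value, in 1 of its 2.

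To show the DNA around the start sites of the members with the largest rise and the largest fall, the RefSeq promoter windows of Tcf7l1 and Axin2 (build GRCm38.p6, 250 bases before to 50 after the start, 5′ to 3′ on the gene's strand) are printed. That of Tcf7l1 is chr6:72788996-72789295 on the minus strand and that of Axin2 is chr11:108920099-108920398 on the plus strand. Capitals mark CTTTG or CAAAG, the shared core of TCF/LEF sites on either strand.
Tcf7l1: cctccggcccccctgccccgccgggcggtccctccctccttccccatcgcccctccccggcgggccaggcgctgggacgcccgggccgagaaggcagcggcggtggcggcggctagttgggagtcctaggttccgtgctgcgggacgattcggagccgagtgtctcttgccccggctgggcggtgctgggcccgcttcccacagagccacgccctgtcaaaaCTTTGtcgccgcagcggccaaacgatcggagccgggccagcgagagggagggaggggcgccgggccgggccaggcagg
Axin2: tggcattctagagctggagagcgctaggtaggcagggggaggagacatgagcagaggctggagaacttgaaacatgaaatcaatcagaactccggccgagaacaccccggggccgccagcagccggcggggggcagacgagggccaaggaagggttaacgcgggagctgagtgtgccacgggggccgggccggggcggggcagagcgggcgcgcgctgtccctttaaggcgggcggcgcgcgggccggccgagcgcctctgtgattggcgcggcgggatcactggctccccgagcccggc
The Tcf7l1 window holds 1 such core, which starts 28 bases before the start site, and the Axin2 window holds none of these letters. Both windows are rich in G and C, at 75.3% and 70% against a median of 52.7% over all 32851 windows. The longer forms ATCAAAG and TTCAAAG, searched on both strands, were in 0 of the 17 windows of the 10 members and in 8.65% of all windows. The 5-letter core CAAAG lies within both and was added to the search after they had been found absent. It was in 7 of the 17 windows, those of Tcf7l1, Tcf7l2 and Lef1, and in 53.9% of all windows, and some windows of Lef1 and Ctnnb1 overlap each other.

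Among the DNA-binding factors, Tcf7l1 was higher in CD34+ cells in both of its probe sets. By probe set 1450117_at it read 5.90 to 7.23 (median 6.31) in CD34+ arrays and 4.32 to 5.53 (median 4.66) in CD34- arrays. The lowest CD34+ array lay above the highest CD34- array. The rise was 3.28-fold, with a log2 fold change of 1.71 (SE 0.27, limma adjusted p = 0.000645). The lower CD34- values came from arrays 4, 5 and 6 and the higher ones from arrays 1, 2 and 3, and array 2 was the highest in both fractions. By probe set 1436207_at Tcf7l1 read 6.26 to 7.05 (median 6.39) in CD34+ and 5.37 to 5.86 (median 5.61) in CD34- arrays. These did not overlap either, at 1.86-fold and a log2 fold change of 0.89 (SE 0.14, limma adjusted p = 0.000722). The 95% intervals were 1.13 to 2.29 for 1450117_at and 0.58 to 1.20 for 1436207_at, which overlap narrowly. The probe sets share the direction of the rise, and a difference in its size was not tested. CD34+ array 3, the lowest of its fraction by 1450117_at, was the second highest by 1436207_at. Both calls held without CD34+ arrays 1, 3 and 5, at 1.73 (limma adjusted p = 0.00475) and 0.66 (adjusted p = 0.00353).

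Tcf7l2, which carries both activator and repressor forms through splicing, was higher in CD34+ cells in part of its 4 probe sets. By probe set 1426639_a_at it read 5.53 to 6.10 (median 5.67) in CD34+ and 4.79 to 5.16 (median 4.94) in CD34- arrays, with no overlap. That is 1.72-fold, a log2 fold change of 0.78 (SE 0.11, limma adjusted p = 0.000387). Probe set 1425229_a_at read 4.92 to 5.82 in CD34+ and 4.60 to 5.31 in CD34- arrays, which overlap. Its log2 fold change of 0.47 (SE 0.15) passed narrowly (limma adjusted p = 0.0411) and did not pass on leaving out any of 9 of the 12 single arrays, with CD34+ arrays 1, 3, 5 and 6 and CD34- arrays 1, 3, 4, 5 and 6 among the 9. The same probe set was at 0.28 without CD34+ arrays 1, 3 and 5 (limma adjusted p = 0.333), and its call was also lost after median centring (0.37, adjusted p = 0.0728) and after quantile normalization (0.54, adjusted p = 0.0514). Probe set 1429427_s_at read 5.61 to 7.44 in CD34+ and 4.74 to 6.18 in CD34- arrays. Its log2 fold change of 0.88 did not pass (SE 0.32, limma adjusted p = 0.0661), passed without CD34+ array 4 (1.06, adjusted p = 0.0215), over probe sets with a mean of 5 or more (adjusted p = 0.0335) and with trend and robust eBayes (adjusted p = 0.0499), and was 0.34 without CD34+ arrays 1, 3 and 5 (adjusted p = 0.547). The remaining probe set, 1429428_at, read 5.33 to 6.07 in CD34+ and 5.53 to 6.11 in CD34- arrays, a log2 difference of 0.04 with a 95% interval of -0.29 to 0.37. It and 1429427_s_at carry the same source accession in the annotation.

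Lef1 read low in both fractions and did not pass in either of its 2 probe sets, of which 1 had an unadjusted limma p under 0.05. Probe set 1454734_at read 3.86 to 5.01 (median 4.30) in CD34+ and 3.82 to 4.13 (median 3.95) in CD34- arrays. The mean log2 difference of 0.38 did not pass (SE 0.16, limma adjusted p = 0.118). Within the CD34+ fraction arrays 3, 1 and 5 were the highest, at 5.01, 4.59 and 4.45, and arrays 6, 2 and 4 read 4.16, 4.02 and 3.86, in the range of CD34- cells or just above it. Leaving arrays 1, 3 and 5 out gave a difference of 0.04 (limma adjusted p = 0.841). Leaving CD34+ array 4 out instead gave 0.47, which passed (adjusted p = 0.0367). The difference also passed when arrays 1-2, 3-4 and 5-6 were averaged (adjusted p = 0.0196). Each of those CD34+ means holds 1 of arrays 1, 3 and 5, so this fit does not set them apart. The labels do not say that the averaged arrays share an RNA. Probe set 1421299_a_at read 2.72 to 3.80 in CD34+ and 2.89 to 3.08 in CD34- arrays, close to the Trpn control probe sets, bacterial sequences that read 2.31 to 2.95 and mark the low end of the scale. Its log2 difference was 0.20 (limma adjusted p = 0.343), and its order of CD34+ arrays again had 3, 5 and 1 at the top.

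Lef1 is also expressed in the dermal papilla and in T cells, and markers of both moved between fractions. The mean level of 12 dermal papilla markers was 4.02 to 4.47 in CD34+ and 3.82 to 4.10 in CD34- arrays, and 2 markers in CD34+ and 4 in CD34- cells had means at or under the highest Trpn control. Of their 29 probe sets 9 were higher and 1 lower in CD34+ cells (31% and 3.45%, against 7.64% and 13.9% of all probe sets). Within the CD34+ fraction that level was highest in arrays 5, 3 and 1, at 4.47, 4.42 and 4.41, the same arrays that led for Lef1. Fibroblast markers (14 genes) read 5.78 to 6.88 in CD34+ and 4.94 to 5.64 in CD34- arrays, with arrays 1, 3 and 5 highest as well. Endothelial markers were highest in CD34+ arrays 3, 1 and 5 too, at 4.16, 3.97 and 3.94. Not every list was led by these arrays. Levels of 10 melanocyte markers were highest in CD34+ arrays 3 and 1 (5.47 and 5.43) and lowest in array 5 (5.09). Arrays 3, 1 and 5 are the compressed arrays, and their medians over all probe sets were the highest of all arrays (4.43, 4.33 and 4.31). T cell markers (16 genes) read 5.28 to 5.98 in CD34+ and 6.64 to 7.48 in CD34- arrays, with array 4 the highest of the CD34+ arrays. Of their 28 probe sets 21 were lower in CD34+ cells and 0 higher (75% and 0%, against 13.9% and 7.64% of all probe sets). The part of these cell types, or of the compression, in the values of Lef1 was not tested.

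**Figure D2:**
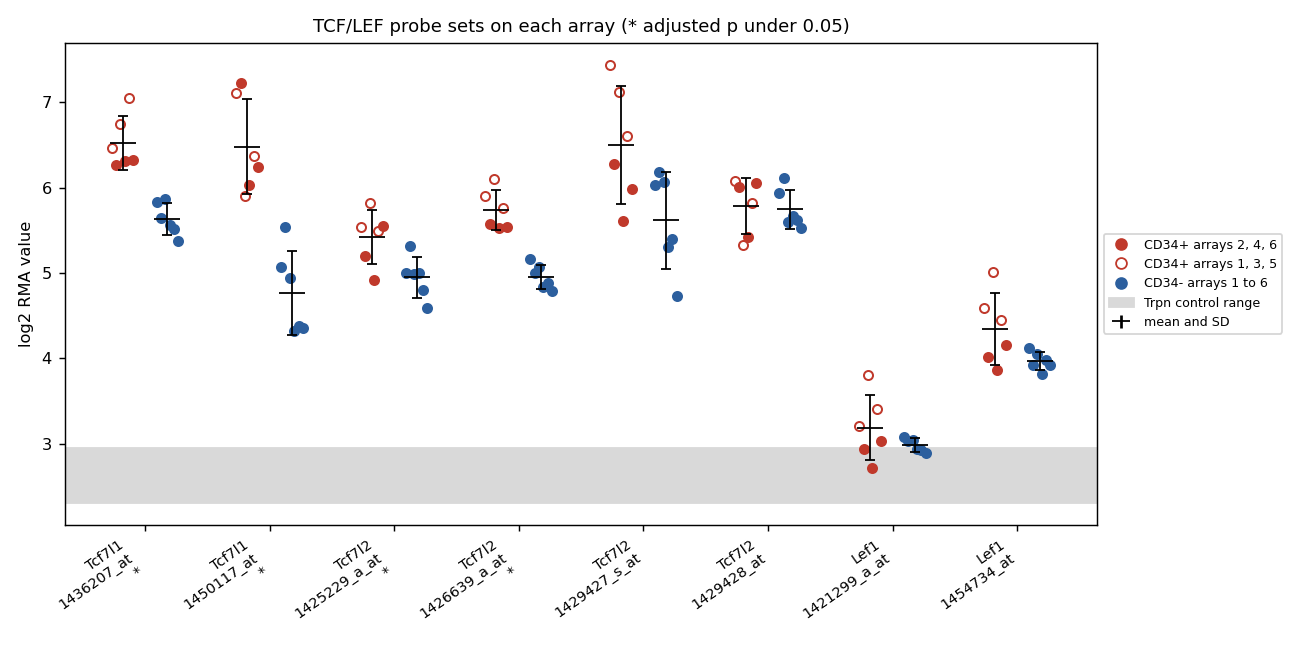
Log2 RMA values of the probe sets of Tcf7l1, Tcf7l2 and Lef1 on every array, with mean and SD per fraction. Open red points are CD34+ arrays 1, 3 and 5, and the grey band is the range of the Trpn controls. Both Tcf7l1 probe sets and Tcf7l2 1426639_a_at part the fractions, while in Lef1 the open points lie above the other CD34+ arrays.

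Beta-catenin mRNA did not pass in any of its 3 probe sets by limma, and 0 of the 3 had an unadjusted p under 0.05. Probe set 1420811_a_at had a high reading on every array, 11.62 to 12.22 (median 11.92) in CD34+ and 11.32 to 12.25 (median 11.92) in CD34- arrays. Its log2 difference was 0.04 with a 95% interval of -0.30 to 0.37, so a change of 2-fold lies outside the interval. Probe set 1450008_a_at read 5.78 to 7.44 in CD34+ and 6.45 to 7.77 in CD34- arrays, a log2 difference of -0.51 (SE 0.27, limma adjusted p = 0.195). Its 95% interval of -1.10 to 0.08 includes a 2-fold fall. The difference by this probe set was -0.020 without CD34+ arrays 1, 3 and 5. Probe set 1430533_a_at ranged more widely in CD34+ arrays, 4.52 to 7.0, with array 4 at the top and array 3 at the bottom, and read 5.13 to 5.87 in CD34- arrays (log2 difference 0.21, SE 0.33, and 0.86 at an adjusted p of 0.0637 without CD34+ arrays 1, 3 and 5). With all arrays the 95% interval of 1430533_a_at was -0.51 to 0.93. Such intervals are too narrow wherever arrays of the same RNA are alike. The arrays measure mRNA, and beta-catenin is mainly controlled by degradation of the protein, which is not seen here.

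Axin2, the feedback inhibitor, was lower in CD34+ cells. Probe set 1436845_at read 7.59 to 8.97 (median 8.14) in CD34+ and 9.13 to 9.81 (median 9.55) in CD34- arrays. No CD34+ array reached the lowest CD34- array. The level was 2.33-fold lower, a log2 fold change of -1.22 (SE 0.22, limma adjusted p = 0.00153, 95% interval -1.69 to -0.75). CD34+ arrays 4 and 6 came nearest to the CD34- fraction, at 8.97 and 8.84, and array 1 lay farthest, at 7.59. The fall was smaller without CD34+ arrays 1, 3 and 5 and still passed (-0.86, limma adjusted p = 0.0183). The other probe set, 1421341_at, read 2.98 to 3.76 in CD34+ and 3.12 to 3.39 in CD34- arrays, just above the Trpn controls, with a log2 difference of -0.008 (SE 0.12). The 2 probe sets of Axin2 thus differ, and the array shows no fall by the dim one.

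**Figure D3:**
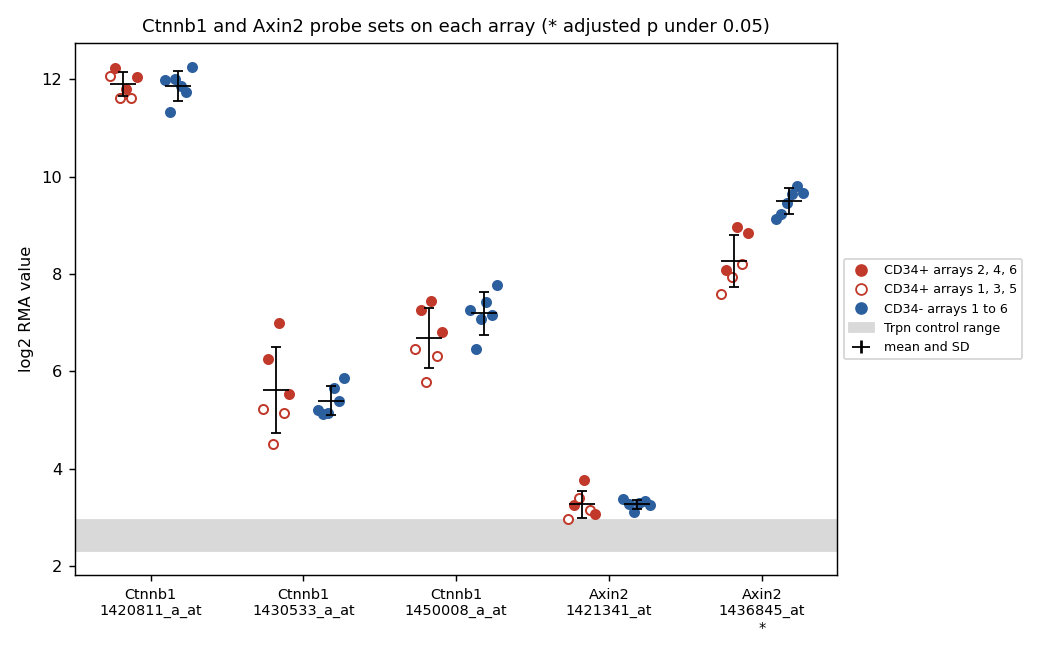
Log2 RMA values of the 3 Ctnnb1 and 2 Axin2 probe sets on every array, with mean and SD per fraction and the Trpn range as a grey band. The CD34+ points of Axin2 1436845_at, at 7.59 to 8.97, lie below all CD34- points, and the Ctnnb1 fractions overlap in each probe set.

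The TLE corepressors, which lack DNA binding of their own and are brought to target genes by TCF/LEF and other factors, did not move as a group. Tle4 was higher in CD34+ cells by probe set 1430384_at, which read 5.96 to 6.50 (median 6.42) in CD34+ and 5.54 to 5.89 (median 5.74) in CD34- arrays without overlap. This is 1.54-fold, a log2 fold change of 0.62 (SE 0.11, limma adjusted p = 0.00115). Probe set 1450853_at had a far higher reading, 9.18 to 9.74 in CD34+ and 8.92 to 9.47 in CD34- arrays, and did not pass (log2 difference 0.21, adjusted p = 0.217), although it did after quantile normalization (0.49, adjusted p = 0.0245). The last one, 1425650_at, read 2.72 to 3.06 in CD34+ and 2.86 to 3.14 in CD34- arrays, near the Trpn controls. Its log2 difference was -0.14, opposite in sign to the other Tle4 probe sets, and it passed as lower after median centring (-0.24, adjusted p = 0.0362) and after quantile normalization (-0.25, adjusted p = 0.0402).

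Tle3 was lower in CD34+ cells by probe set 1419655_at, which read 7.44 to 8.51 (median 8.19) in CD34+ and 8.58 to 9.26 (median 8.82) in CD34- arrays. The fractions did not overlap, but CD34+ arrays 2, 4 and 6 read 8.49 to 8.51, close under the lowest CD34- array, and arrays 1, 3 and 5 read 7.44 to 7.88. The fall was -0.76 on the log2 scale (SE 0.20, limma adjusted p = 0.0151) and did not pass without those 3 arrays (-0.36, adjusted p = 0.139). The other probe sets of Tle3 read 4.11 to 4.49 in CD34+ and 4.30 to 4.99 in CD34- arrays (1419654_at), 4.82 to 5.66 in CD34+ and 5.11 to 5.81 in CD34- arrays (1458512_at), and 3.05 to 3.74 in CD34+ and 3.19 to 3.81 in CD34- arrays (1449554_at). Their log2 differences were -0.26, -0.26 and -0.14, and none of these 3 passed with all 12 arrays by limma, with 1 at an unadjusted p under 0.05. Probe set 1419654_at passed as lower after median centring (-0.37, adjusted p = 0.0475) and after quantile normalization (-0.35, adjusted p = 0.0435).

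Tle1 had probe sets of opposite sign. Probe set 1434033_at read 5.82 to 6.86 in CD34+ and 5.84 to 6.00 in CD34- arrays, with a log2 difference of 0.37 that did not pass (SE 0.14, limma adjusted p = 0.0750). It passed after quantile normalization (0.52, adjusted p = 0.00256), when arrays 1-2, 3-4 and 5-6 were averaged (adjusted p = 0.0196), without CD34+ array 3 (0.46, adjusted p = 0.0161) and without CD34+ arrays 1, 3 and 5 (0.59, adjusted p = 0.00840). Probe set 1422751_at read 6.02 to 7.22 in CD34+ and 6.45 to 7.65 in CD34- arrays, a log2 difference of -0.30 (limma adjusted p = 0.402). The single probe set of Tle2 read 4.32 to 5.64 in CD34+ and 4.40 to 4.59 in CD34- arrays (log2 difference 0.24, SE 0.18), and CD34+ array 2 was the highest, ahead of 4.67 in the next. Family relatives outside the members, looked up after the members, showed differences near 0, Tle5 at 0.03 (SE 0.26, which was -0.075 after median centring) and Tle6 at 0.01 (SE 0.10, which was -0.090 after median centring).

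**Figure D4:**
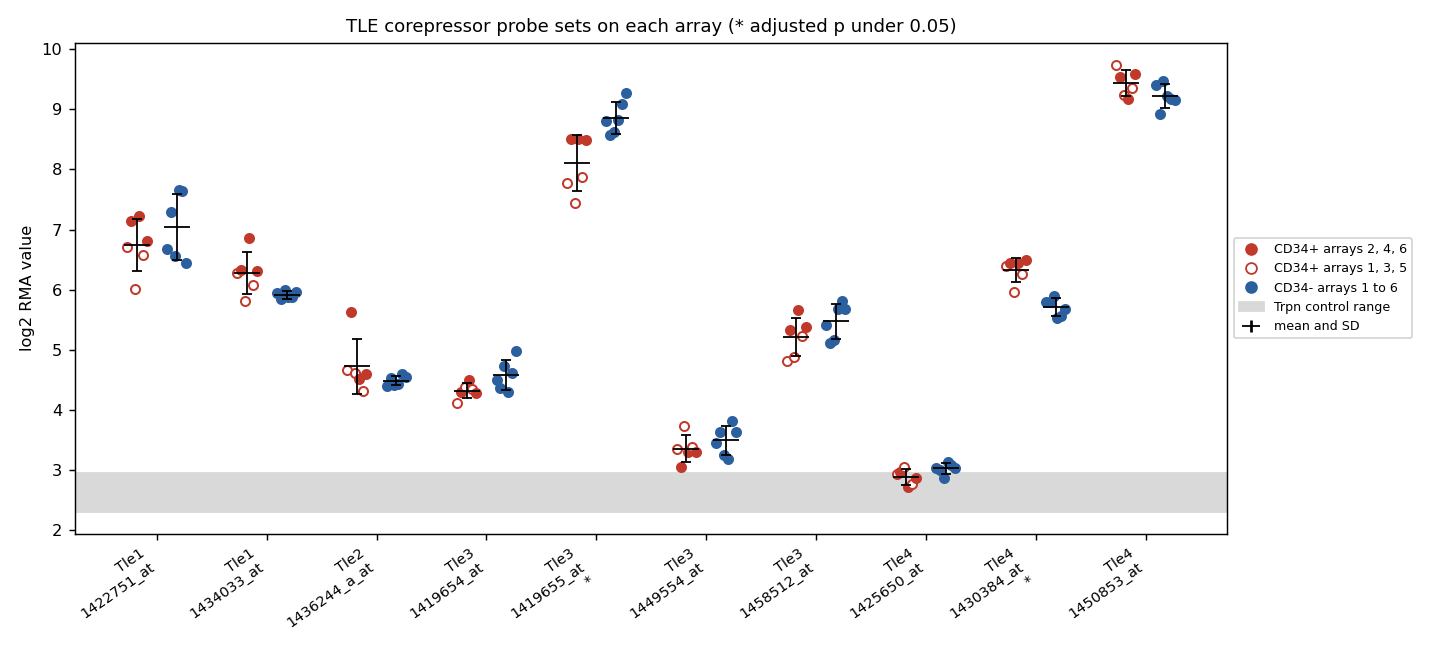
Log2 RMA values of the 10 TLE probe sets on every array, with mean and SD per fraction, open points for CD34+ arrays 1, 3 and 5 and the Trpn range as a grey band. Tle4 1430384_at lies higher in CD34+ arrays and Tle3 1419655_at lower, and the other 8 overlap.

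Genes that WNT signalling is known to switch on moved in both directions. Of 30 measured targets on a list of 32, drawn from several tissues and without Axin2, 8 had probe sets that were higher, 9 had probe sets that were lower and 13 had none that passed. By probe set this was 13 higher and 16 lower of 71 (18.3% and 22.5%, against 7.64% and 13.9% of all probe sets), with a median log2 fold change of 0.05. The median changed sign under 3 alternatives, to -0.097 without CD34+ arrays 1, 3 and 5 (12 higher, 13 lower), -0.056 after median centring and -0.012 after quantile normalization. Among inhibitors that feed back on the pathway as Axin2 does, the membrane protein Apcdd1 was lower in 5 probe sets, by 0.89 to 2.32 on the log2 scale, and read 5.05 ± 0.56 in CD34+ against 7.38 ± 0.13 in CD34- cells (SD, n = 6) by the most changed, 1418383_at (limma adjusted p = 1.35e-05).

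The ubiquitin ligases Rnf43 and Znrf3, which remove WNT receptors from the surface, were lower too. Rnf43 read 4.84 ± 0.37 in CD34+ against 6.04 ± 0.27 in CD34- cells (SD, n = 6, limma adjusted p = 0.000377), and Znrf3 read 7.19 ± 0.54 in CD34+ against 8.33 ± 0.36 in CD34- cells by probe set 1435608_at (limma adjusted p = 0.00363). Nkd1, an inhibitor that binds Dishevelled, was higher by 1 of its 4 probe sets, 1429506_at, at 5.21 ± 0.59 in CD34+ against 3.31 ± 0.18 in CD34- cells (SD, n = 6, limma adjusted p = 8.89e-05), and its other 3 probe sets, at 0.16, 0.18 and 0.14 on the log2 scale, did not pass. Further inhibitors on the list had no probe set that passed, with log2 differences of -0.18 to 0.07 in 4 probe sets of Nkd2, 0.25 for Notum, 0.42 and 0.04 for Dkk1 and 0.20 for Dkk4. Cyclin D1 (Ccnd1) had a log2 fold change of -0.97 by 1417420_at and the receptor Tnfrsf19 of -2.29 by 1448147_at. Other probe sets of Ccnd1 (-0.79 and -0.54) did not pass, and those of Tnfrsf19 were at -1.11, which passed, and -0.26, which did not. Higher were Id2, an inhibitor of helix-loop-helix factors (2.17), the WNT receptor Fzd7 (1.49) and the Notch ligand Jag1 (0.87). Other probe sets of Fzd7 (0.23) and Jag1 (0.14 and -0.18) did not pass, and those of Id2 were at 1.01, which passed, and 0.07, which did not. Apart from Apcdd1, the genes named in these sentences were looked up after their values had been seen. The largest rises on the list were those of Lgr5 (4.18), a receptor for R-spondins that is also among the bulge markers, the adhesion molecule Nrcam (3.53, with 4 probe sets higher) and the secreted inhibitor Wif1 (3.33, with a CD34- mean of 2.73, within the Trpn range).

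Of 18 measured genes of the hair matrix, the compartment where Lef1 acts with hair keratin genes, 3 had higher and 3 lower probe sets, and 12 had none that passed. Hoxc13, a regulator of hair keratins, had a log2 fold change of 2.11 (SE 0.29), and the homeobox factor Msx1 one of 0.74 (SE 0.14). Gata3, a factor of the inner root sheath, had one of -1.66 (SE 0.26). Ovol1, a zinc finger repressor, had one of -0.65 that was lost when arrays 1-2, 3-4 and 5-6 were averaged (limma adjusted p = 0.0803), without CD34+ arrays 1, 3 and 5 (adjusted p = 0.239), and on leaving out any of 7 single arrays (CD34+ 1, 3, 4 and 5 and CD34- 1, 5 and 6). By probe set 4 were higher and 3 lower of 24 (16.7% and 12.5%, against 7.64% and 13.9% of all probe sets). The counts were 2 and 1 without CD34+ arrays 1, 3 and 5 and 2 and 3 after quantile normalization.

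Coactivators that beta-catenin recruits had 13 lower and 3 higher probe sets of 53 (24.5% and 5.66%), from 21 genes with a median log2 fold change of -0.16. Over all probe sets 13.9% were lower and 7.64% higher. In the fit of only probe sets with a mean of 5 or more, these shares were 30.8% and 8.34%. The list was not counted at that mean. Lower were Tbl1x (-1.57 and -1.39 in 2 probe sets), a subunit that binds beta-catenin at target promoters, Ldb1 (-1.10), the chromatin remodeller Smarca4 (-1.0) and the acetyltransferase Crebbp (-0.99). Other probe sets of Tbl1x (0.42, the brightest of that gene) and Crebbp (-0.16, -0.16 and 0.48) did not pass, and another of Smarca4 was at -0.58, which passed. The counts were 5 lower and 4 higher without CD34+ arrays 1, 3 and 5, against 8.22% lower and 7.36% higher of all probe sets. Then Ldb1 (limma adjusted p = 0.132), Smarca4 1426805_at (adjusted p = 0.405), Crebbp (adjusted p = 0.147) and Tbl1x 1434644_at (adjusted p = 0.0653) did not pass. Smarca4 1426805_at also lost its call after quantile normalization (adjusted p = 0.0762) and on leaving out any of 9 single arrays (CD34+ 1, 3, 5 and 6 and CD34- 1 to 5).

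Nuclear inhibitors and corepressors other than the 4 TLE members had 11 lower and 1 higher probe sets of 40 (27.5% and 2.5%). Their median was -0.19. Of all probe sets 13.9% were lower and 7.64% higher, and of those with a mean of 5 or more 30.8% and 8.34%. The deacetylase Hdac2 (-2.02, SE 0.36) and the demethylase Kdm1a (-1.17, SE 0.19) were lower, as was Sox7 (-0.98, SE 0.22), an HMG-box factor that can bind beta-catenin. Ctbp2, a corepressor, was higher (1.11, SE 0.20, limma adjusted p = 0.00165, 7.33 ± 0.46 in CD34+ against 6.22 ± 0.30 in CD34- cells, SD, n = 6). Other probe sets of Sox7 (0.24) and Ctbp2 (0.13) did not pass, nor did the brightest of Hdac2 (-0.49). Another of Hdac2 (-0.41) and another of Kdm1a (-0.54) passed as lower. The counts were 7 lower and 2 higher without CD34+ arrays 1, 3 and 5 and 6 lower and 2 higher after quantile normalization. The destruction complex and its regulators had 12 lower and 6 higher of 71 (16.9% and 8.45%), near the shares over all probe sets, which became 7 lower and 8 higher after quantile normalization, 13 and 2 after median centring and 5 and 4 without CD34+ arrays 1, 3 and 5. Of these the casein kinase Csnk1d (-1.32), the casein kinase Csnk1g2 (-0.82), the ubiquitin ligase Siah1a (-0.76) and the kinase Gsk3b (-0.76), which marks beta-catenin for degradation, were lower. Csnk1d passed as lower in further probe sets too, but not in its brightest ones (0.04 and 0.02). Gsk3b did not pass in its other probe sets (0.12, -0.21, -0.08, -0.75 and -0.16). Csnk1g2 did not pass without CD34+ arrays 1, 3 and 5 (limma adjusted p = 0.0642). Siah1a lost its call after quantile normalization (adjusted p = 0.264), when arrays 1-2, 3-4 and 5-6 were averaged (adjusted p = 0.0829) and on leaving out any of 9 single arrays (CD34+ 1, 3, 4 and 6 and CD34- 1, 2, 3, 5 and 6), and another of its probe sets was higher (0.31).

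**Figure D5:**
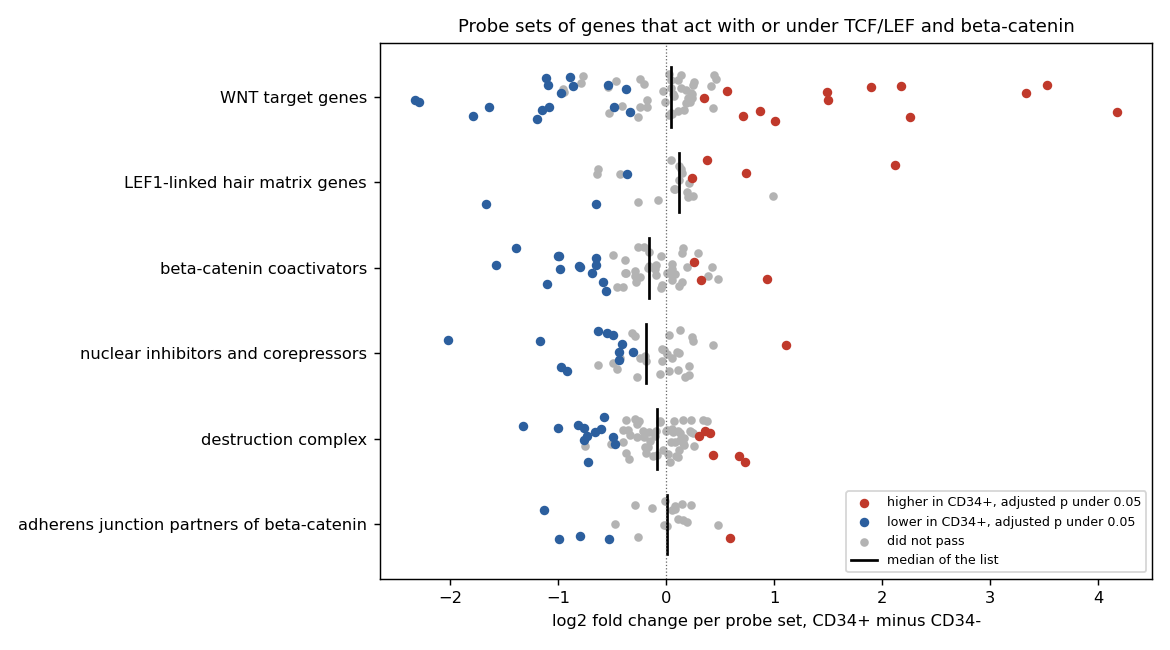
Log2 fold change (CD34+ minus CD34-) of each probe set of 6 lists of genes that act with or under TCF/LEF and beta-catenin, with the list median as a black bar. Red and blue points passed as higher and lower in CD34+ cells. WNT target genes spread widest, between -2.32 and 4.18, with 13 red and 16 blue points of 71.

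The genes nearest to Tcf7l1 and Axin2 in pattern were found by the root-mean-square distance over the 12 arrays, after each of 34943 probe sets of other genes had been centred on its own mean. Nearest to Tcf7l1 1450117_at were Ptn, a heparin-binding growth factor (distance 0.27 on the log2 scale), Mxra7 (0.30), Spats2l (0.31), Camk2n1, an inhibitor of a calmodulin-dependent kinase (0.31), and the matrix protein Fbln1 (0.31). Their log2 fold changes lay between 1.46 and 1.74. Nearest to Axin2 1436845_at were Rasgrp1, an activator of Ras (0.12), Popdc3 (0.14), the transporter Slco3a1 (0.14), the protease Prss23 (0.15) and Syngr2 (0.16), with log2 fold changes from -1.27 to -1.12. Of these 10 probe sets, Slco3a1 (limma adjusted p = 0.0690) and Prss23 (adjusted p = 0.0544) did not pass without CD34+ arrays 1, 3 and 5.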

How the data were processed

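The deposited table gives log2 values per probe set, made by the authors with RMA per the submitters' processing notes. The RMA version and whether the 12 arrays were normalized together are not given in the sources used here. RMA gives no detection call, so the 3 Trpn controls mark the low end. In GEO's platform annotation (symbols brought up to date by Entrez identifier), 34945 probe sets had 1 gene, 932 had several and 9160 had no name here.

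Each probe set was fitted by lmFit and eBayes of limma 3.58.1 (R 4.3.3), CD34+ minus CD34-, two-sided and without a block. Benjamini-Hochberg adjustment ran over all 45037 probe sets with a threshold of 0.05, and the fit was tested on simulated data. The number of arrays limits the precision. The members and lists were chosen with earlier results of these data known. From each list, up to 4 genes with the largest changes past the threshold are named, and for other cell types the 2 genes with the highest means. Alternatives were other scalings, filters, array means, a block and left-out arrays. No amino acid sequences were used here.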

Additional observations from a re-analysis of the deposited data

Results flagged for a closer look

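Of 46 sets of 6 values (23 probe sets in 2 fractions), 1 held an array far from the others by Dixon's test at the 95% level, and chance would flag about 1 in 20. Tle2 (1436244_a_at) read 5.636 in CD34+ array 2, whereas the other 5 CD34+ arrays read 4.315 to 4.668. The gap was 0.733 of the fraction's whole range, above the critical value for 6 samples. Without that array the log2 difference of Tle2 was 0.053.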

How the results depend on the processing

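With 9 alternatives and 12 fits that left out 1 array each, both Tcf7l1 probe sets, Tcf7l2 1426639_a_at, Axin2 1436845_at and Tle4 1430384_at kept direction and call wherever they were fitted. Tle3 1419655_at lost its call in 1 alternative, without CD34+ arrays 1, 3 and 5, and Tcf7l2 1425229_a_at in 13 of 20. The count of 7 member calls became 3 with 1 probe set per gene, where only 9 were fitted, and the 9704 calls over all probe sets became 4750. Leaving out single arrays gave 6 to 9 member calls and 7439 to 12318 calls in all. A block on the array number left 7 member calls (Tcf7l2 1425229_a_at lost at adjusted p = 0.0656, Tcf7l2 1429427_s_at gained at 0.00884) and 10209 in all. The deviations of same-numbered arrays correlated at 0.21 to 0.49 in 4 of the 6 pairs and at -0.24 and -0.18 in the others, and 3 of the 6 correlated best with their own number, a hint from the data of a shared source for some numbers. Since the labels give no such pairing and not every pair correlated, the block was kept as an alternative. Signs changed in differences that had not passed. After median centring Tcf7l2 1429428_at was at -0.060, Ctnnb1 1420811_a_at at -0.065, Tle5 at -0.075 and Tle6 at -0.090. Without CD34+ arrays 1, 3 and 5, Lef1 1421299_a_at was at -0.087, Axin2 1421341_at at 0.082, Tle1 1422751_at at 0.010, Tle6 at -0.048, Vim at -1.26, Inhba at -0.39, Mmp2 at 0.11 and Kdr at -0.081. Mmp2 was at 0.12 after quantile normalization. Over single left-out arrays, Tcf7l2 1429428_at ran from -0.016 to 0.13, Ctnnb1 1420811_a_at from -0.071 to 0.12, Ctnnb1 1430533_a_at from -0.064 to 0.43, Axin2 1421341_at from -0.11 to 0.051, Tle5 from -0.092 to 0.18 and Tle6 from -0.056 to 0.065. The cause of these changes was not tested. Low readings limit Lef1 1421299_a_at, Axin2 1421341_at and Tle4 1425650_at, which lie near the Trpn controls.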

Other observations

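Beta-catenin also ties cadherins to the cytoskeleton. Partners of that complex had 4 lower and 1 higher of 21 probe sets in CD34+ cells (19% and 4.76%). Of all probe sets 13.9% were lower and 7.64% higher, and of those with a mean of 5 or more 30.8% and 8.34%. The catenin Ctnnd1, which steadies cadherins at the membrane, was lower in 2 probe sets, at 8.27 ± 0.67 in CD34+ against 9.40 ± 0.16 in CD34- cells by 1437448_s_at (SD, n = 6 arrays each; limma gave -1.13 at an adjusted p of 0.00579). Ctnnal1 had a log2 fold change of -0.80, alpha-catenin (Ctnna1) of -0.53 and the actin-binding Afdn of 0.60. Other probe sets of Ctnna1 (0.09, 0.01 and 0.05), Ctnnal1 (-0.26) and Afdn (0.08) did not pass. Neither Ctnna1 (limma adjusted p = 0.228) nor Ctnnal1 (adjusted p = 0.0962) passed without CD34+ arrays 1, 3 and 5. Afdn lost its call after median centring (adjusted p = 0.104), and leaving out any of 8 single arrays (CD34+ 1, 3 and 5 and CD34- 1, 3, 4, 5 and 6) or 5 (CD34+ 2 and 6 and CD34- 1, 2 and 3) also ended the call of Ctnna1 or Afdn.

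Basal keratinocyte genes had 14 lower and 1 higher of 29 probe sets (48.3% and 3.45%, against 13.9% and 7.64% of all probe sets), with Krt14 (-2.19), Itgb4 (-1.18), Itgb1 (-1.16) and Krt5 (-1.04) lower. The counts were 7 lower and 2 higher without CD34+ arrays 1, 3 and 5, and neither Itgb4 (limma adjusted p = 0.121) nor Itgb1 (adjusted p = 0.156) passed. Largest among the bulge markers were Fgf18 (5.81), Tbx1 (5.28), Lhx2 (4.80, adjusted p = 7.62e-07) and Krt24 (4.50). The lower calls on the bulge list were those of Itga6 (-1.64 and -0.82), and Krt15 (-0.29) was its only gene without a call. In the T cell list Cd3g (-3.29), Ptprc (-2.80), Trat1 (-2.30) and Cd3d (-2.18) were lower, with Thy1 (-1.90) and Ptprc highest in mean level. Fibroblast markers had 12 higher and 1 lower of 27, led by Col1a2 (3.15), Col5a2 (3.02) and Dcn (2.21), with Thy1 as the lower one, and 9 higher and 2 lower without CD34+ arrays 1, 3 and 5. The fibroblast markers of highest mean, Vim (0.68) and Mmp2 (-0.20), did not pass. In the dermal papilla list Rspo3, highest in mean, had a log2 fold change of -2.02, Trps1 of 1.71, Hhip of 1.63 and Prdm1 of 0.65, and Inhba (0.91) did not pass. Endothelial markers had 2 higher and 0 lower of 23 (8.7% and 0%), a higher share near the 7.64% of all probe sets. The 2 were Ramp2 at 0.64 and Flt1 at 0.38. Without CD34+ arrays 1, 3 and 5, 1 was higher and Flt1 did not pass (0.25, limma adjusted p = 0.0671). With all arrays Eng (0.24) and Kdr (0.11) did not pass. Langerhans and myeloid markers had 9 lower and 0 higher of 23 (39.1% and 0%), among them H2-Aa (-1.52), H2-Ab1 (-1.23), Fcer1g (-1.21), Cd207 (-1.11) and Epcam (-0.95). Another probe set of H2-Aa, the one highest in mean, did not pass (-0.58). Melanocyte markers had 3 higher and 2 lower of 21 (14.3% and 9.52%), with Mitf at 3.13, Sox10 at 0.49, Tyrp1 at -0.67 and Kit at -0.66, and Dct (-0.36) did not pass. Neither Sox10 (0.28, limma adjusted p = 0.211) nor Tyrp1 (-0.65, adjusted p = 0.0858) passed without CD34+ arrays 1, 3 and 5. Epcam, Prdm1, Tyrp1 and Sox10 did not pass when arrays 1-2, 3-4 and 5-6 were averaged (limma adjusted p = 0.0657, 0.0990, 0.0978 and 0.0691 in that order).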
